A study of Mus musculus with 8 samples.

Results

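The neurons described here are the 582 nuclei of experiment 1 that the deposited annotation places in the class Neurons, of 4076 neurons among 12447 nuclei in the series. They come from 4 libraries of uninjured mice (strain C57BL/6, genotype wild type, tissue low thoracic cord), and the labels give no age or sex. In each of 2 replicates nuclei were sorted into a GFP-positive fraction, which holds neurons traced from the lumbar cord, and into a GFP-negative one, called untraced below. The traced libraries hold 80 and 25 neurons and the untraced libraries 354 and 123, so that 105 traced neurons stand against 477 untraced ones. No injury or other treatment separates the groups, and the comparison asks how neurons with an axon to the lumbar centres for walking differ from their neighbours.

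The labels name neither the virus nor the injection, and 0 genes of the matrix are named GFP, EGFP or Cre, so the sort was not checked on its own transcript here. A GFP-negative neuron may still project to the lumbar cord if the tracer did not reach it. The titles number the replicates without saying that they are separate animals, and the p-values therefore measure the spread between libraries. Over all neurons and for shares, that spread also includes the pair of hemisection (injured) libraries of experiment 2, which entered the same fit. Both fractions of a replicate bear the same number, which makes a paired fit possible: results with this replicate block are given where they change a call.

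Thoracic neurons that reach the lumbar cord are propriospinal neurons, which link segments of the cord and carry descending drive to the circuits for stepping. Ventral and intermediate cord holds many of them, whereas the superficial dorsal horn is rich in local excitatory and inhibitory neurons that process touch, itch and pain. Spinal neurons keep a code of transcription factors from development: Ebf and Sox5 genes mark dorsal excitatory cells, Pax2 and Sall3 mark inhibitory cells, and Zfhx3 and the Onecut genes mark early-born cells with long axons.

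Traced neurons held more UMIs, with a median of 16489.5 and 12138 UMIs per neuron against 8522 and 5767 in the untraced libraries. Summed over neurons the libraries hold between 333459 and 3508523 UMIs. Neurons made up 84.2% and 92.6% of the traced nuclei but 18.3% and 13.9% of the untraced nuclei, most of the rest being oligodendrocytes. All 4 neuron markers tested were expressed in every library. Their sum was 10593 and 9488 CPM (UMI counts scaled to the sum over the neurons of a library) in the traced libraries and 13693 and 10076 CPM in the untraced ones, all 4 had a negative difference with a median log2 fold change of -0.25, and none was called. Glial transcripts were also present in the neuron sums: the 10 oligodendrocyte markers reached 90.9 and 78.0 CPM in the traced libraries and 249 and 267 CPM in the untraced ones. The 2 untraced libraries share 2 cell barcodes, and no other pair shares any.

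The traced fraction differed first in its mix of neurons. Prefixes of the deposited subtype names group the neurons into 11 classes, whose letters are read here as dorsal (D), middle (M) or ventral (V) and excitatory (E) or inhibitory (I). What a final P or L stands for is not stated in these sources. VEP neurons, a ventral excitatory class, numbered 31 of 80 and 6 of 25 in the traced libraries, which is 38.8% and 24.0%. In the untraced libraries they were 26 of 354 and 6 of 123, or 7.34% and 4.88%. The share was called higher (log2 fold change 2.39, SE 0.348, adjusted p = 8.38e-07 by edgeR's quasi-likelihood test on neuron numbers). DI neurons, a dorsal inhibitory class, showed the opposite: 3.75% and 4.00% of traced against 20.3% and 26.0% of untraced neurons (log2 fold change -2.51, SE 0.469, adjusted p = 3.59e-05). These were 2 of the 11 prefixes tested, 18.2%. Pooled over libraries, VEP neurons made up 35.2% (95% interval 26.2 to 45.2%) of traced and 6.71% (95% interval 4.63 to 9.34%) of untraced neurons, and DI neurons 3.81% (95% interval 1.05 to 9.47%) and 21.8% (95% interval 18.2 to 25.8%), where the exact binomial 95% intervals cover counting error only.

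DE neurons, the dorsal excitatory class, were the largest group of untraced neurons and remained common among traced ones. They accounted for 37.5% and 36.0% of traced and 54.5% and 57.7% of untraced neurons (log2 fold change -0.58, SE 0.160, adjusted p = 0.0536), a difference that did not pass the threshold. It passed when neurons under 1000 UMIs were left out (adjusted p = 0.0376). VIP neurons, ventral inhibitory cells, were 3.75% and 16.0% of traced and 5.08% and 4.07% of untraced neurons, and the groups overlapped. MEP neurons appeared in 1 library only, with 3 of the 80 neurons of traced replicate 1 and 0 in the other 3 libraries. Cerebrospinal fluid-contacting neurons (CSF-N), which line the central canal, were 0 of 105 traced and 8 of 477 untraced neurons. The traced count of 0 allows a share of up to 2.86% when 3 counts are taken as the limit, and up to 3.45% by the exact binomial 95% interval. The calls rested on traced replicate 1, which holds most traced neurons: without it no prefix was called, with an adjusted p of 0.119 for both VEP (log2 fold change 1.84) and DI (-2.44).

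**Figure D1:**
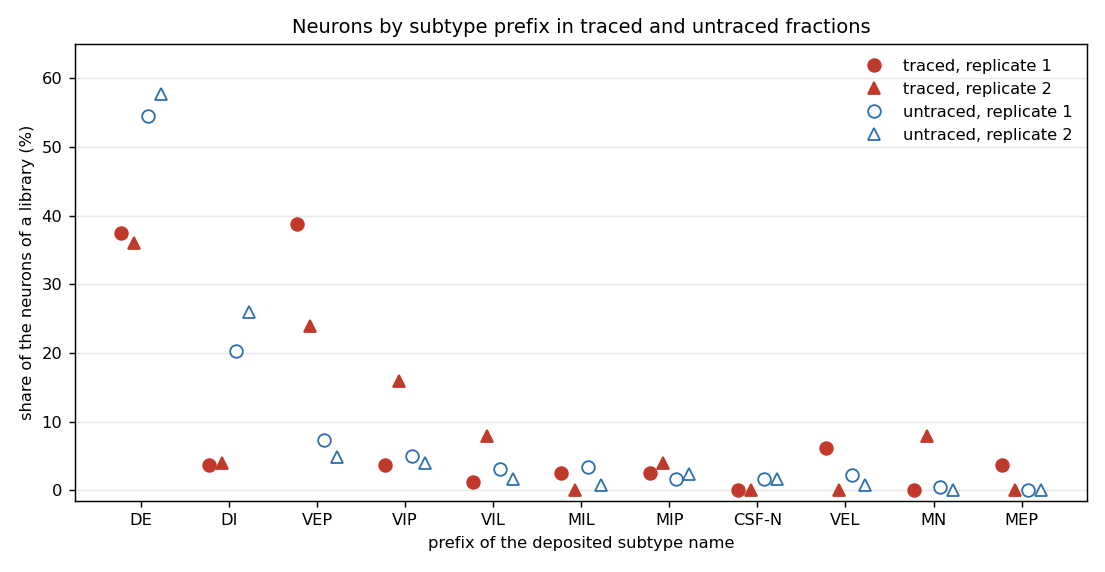
Share of the neurons of each library (vertical axis, percent) by prefix of the deposited subtype name (horizontal axis). Each point is 1 library, filled for traced and open for untraced. VEP lies at 38.8% and 24.0% in the traced against 7.34% and 4.88% in the untraced libraries, and DI at 3.75% and 4.00% against 20.3% and 26.0%.

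At the level of the 28 deposited subtypes no share was called by edgeR at an adjusted p under 0.05, while 9 passed at an unadjusted p under 0.05, of which 4 were positive (traced minus untraced) and 5 negative. The block gave 1 call (3.57%), a positive one. DE_Sox5_Qrfpr neurons numbered 1 and 0 in the traced and 43 and 10 in the untraced libraries (log2 fold change -3.48, SE 0.812, adjusted p = 0.0800). DI_Npy neurons, named for neuropeptide Y, numbered 0 and 0 against 10 and 5. DI_Nxph1_Npy neurons numbered 1 and 0 against 23 and 7, and DE_Nts neurons, named for neurotensin, 1 and 0 against 20 and 7, each with an adjusted p of 0.0949. Other dorsal subtypes were present in both traced libraries: DE_Maf_Cpne4 with 11 and 2 neurons, DE_Rreb1_Zim1 with 4 and 2, against 7 and 1 untraced, and DE_Tac1 with 3 and 1, against 3 and 1 untraced. The shares of the latter 2 had positive differences that did not pass the threshold (log2 fold change 1.75 and 2.15, adjusted p = 0.111 and 0.126). Within the dorsal excitatory class, DE_Rreb1_Zim1 made up 13.3% and 22.2% of the traced but 3.63% and 1.41% of the untraced cells.

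Gene levels were compared on counts summed over the neurons of each library, which cannot tell a different mix of subtypes from a different level per neuron. Of 11601 genes tested across all neurons, 42 were called at an adjusted p under 0.05, which is 0.362%. Of these, 13 were higher in traced neurons (0.112%) and 29 lower (0.25%). With the replicate block, 141 genes were called (1.22%), 52 higher (0.448%) and 89 lower (0.767%), and all 42 were among them. An exact permutation test of 2 against 2 libraries cannot go below p = 0.33, so the single-gene calls rest on a spread estimated across genes. Of the 42, 28 meet the naming rule given with the methods. Because these genes were selected on the same libraries, a lack of overlap between the groups follows largely from that choice. Where it is stated below it is description and no further support, and the share of all tested genes without overlap is not given here.

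The following 3 promoters are shown because their genes stand among the clearest differences in either direction. Each is the 250 bases before a start site in RefSeq on GRCm38.p6, and capitals mark TGACAG or its reverse complement CTGTCA, the core letters bound by MEIS factors. Arhgap6 (chrX:169112628-169112877, + strand, 1 of 3 listed starts, the other 2 having 0 matches to these letters) encodes a GTPase-activating protein and fell in traced neurons, Meis2 (chr2:116064620-116064869, - strand) encodes a homeodomain partner of Hox and Pbx proteins and rose, and Ntng1 (chr3:110143473-110143722, - strand) encodes the axonal adhesion protein netrin-G1 and rose.
Arhgap6: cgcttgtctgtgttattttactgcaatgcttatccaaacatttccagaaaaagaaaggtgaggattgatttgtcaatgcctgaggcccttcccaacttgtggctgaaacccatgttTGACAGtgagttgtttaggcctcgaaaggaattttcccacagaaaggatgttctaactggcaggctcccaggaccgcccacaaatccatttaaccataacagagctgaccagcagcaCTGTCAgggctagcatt
Meis2: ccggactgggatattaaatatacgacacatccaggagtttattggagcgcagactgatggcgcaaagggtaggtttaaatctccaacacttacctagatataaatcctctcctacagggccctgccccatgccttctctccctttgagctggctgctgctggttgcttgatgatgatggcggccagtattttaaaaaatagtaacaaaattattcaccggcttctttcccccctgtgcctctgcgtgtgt
Ntng1: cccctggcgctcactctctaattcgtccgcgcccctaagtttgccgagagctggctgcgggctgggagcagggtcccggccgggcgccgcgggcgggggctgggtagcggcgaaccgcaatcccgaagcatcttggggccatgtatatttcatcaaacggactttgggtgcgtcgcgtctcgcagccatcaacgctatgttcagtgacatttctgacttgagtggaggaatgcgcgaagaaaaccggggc
The MEIS letters occurred, on either strand, in the window of 17.95% of all 27025 genes with an entry, in 2 of 7 called higher genes with an entry (Cul4b and Mecom) and in 3 of 21 called lower ones (Arhgap6, Gsap and Tmcc3). The SOX letters AACAAT were in 10.9% of all genes, in 0 of the 7 and in 2 of the 21 (Arap2 and Tmcc3). The EBF motif, a palindrome, was in 0.914% of all genes, in 1 of the 7 (Mecom) and in 0 of the 21. None of these motifs contains the letters of another, and the shares are a description of these windows.

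Among transcription factors, Meis2, Zfhx3 and Mecom were higher in traced neurons, and Sox5, Ebf1, Ebf2 and Sall3 were lower. Meis2 (chromosome 2, 115863064 to 116065839) stood at 327 and 381 CPM in the traced libraries and 118 and 99.6 CPM in the untraced libraries. Both traced values lay above both untraced ones (354 ± 38 against 109 ± 12.8 CPM (SD, n = 2); log2 fold change 1.61, SE 0.241, adjusted p = 0.00778). The gene was detected in 28.6% and 29.2% of traced and 8.86% and 10.4% of untraced neurons after each was thinned to 2000 UMIs. Unthinned, the shares were 53.8% and 40.0% against 13.8% and 16.3%. Thinned oligodendrocytes of the untraced libraries gave 11.2%, close to the thinned share of untraced neurons taken over all classes. Within VEP alone, untraced neurons held 419 and 452 CPM of Meis2. Without traced replicate 1 the adjusted p of Meis2 was 0.0601.

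Zfhx3, a zinc finger homeobox factor of spinal neurons with long axons, stood at 665 and 449.8 CPM in the traced libraries and 264 and 225 CPM in the untraced libraries. Its difference was called (log2 fold change 1.15, SE 0.209, adjusted p = 0.0311), but not without traced replicate 1 (adjusted p = 0.252). Mecom, a zinc finger factor, had 89.5 and 54 CPM traced, 15.7 and 3.36 CPM untraced (log2 fold change 2.65, SE 0.472, adjusted p = 0.0278), and 47 of its 148 traced UMIs lay in 1 neuron. Without traced replicate 1 the adjusted p of Mecom was 0.409. Of the list of 7 long-range projection factors, 6 were tested, all had a positive difference with a median log2 fold change of 0.86, and Zfhx3 alone was called. The median over all tested genes was -0.00444. Onecut2 had 33.8 and 33 CPM traced, 12.5 and 10.1 CPM untraced and an adjusted p of 0.147.

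Meis2 was also the single called member of the 9 tested Meis and Pbx factors (median 0.07). Pbx3, which binds DNA together with Meis and Hox proteins, had 407 and 414 CPM traced, 235 and 210.3 CPM untraced (log2 fold change 0.81, adjusted p = 0.0626, and 0.0196 with the replicate block). Meis1 was at 291 and 261 CPM traced, 193 and 175 CPM untraced and was not called under either fit. Of the Hox genes, which set position along the body axis, 10 of 18 were tested and none was called, with 3 positive and 7 negative differences. With the block, Hoxc5 rose from 70.4 and 85 to 141 and 174 CPM (adjusted p = 0.0114), and Hoxb8 fell from 73.5 and 44.8 to 18.6 and 39 CPM (adjusted p = 0.0374). Hoxa7 was at 48.9 and 48 CPM in the traced libraries and 68.4 and 63.8 CPM in the untraced libraries and was not called (log2 fold change -0.50, SE 0.245, adjusted p = 0.641).

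Dorsal excitatory factors gave 3 decreases. Ebf2, an early B-cell factor of spinal excitatory neurons (chromosome 14, 67233292 to 67430918), stood at 243 and 201 CPM in the traced libraries and 673 and 819 CPM in the untraced libraries. Both traced libraries lay below both untraced ones (222 ± 29.8 against 746 ± 103 CPM (SD, n = 2); log2 fold change -1.78, SE 0.219, adjusted p = 0.00158). Ebf1 was the most abundant of the lower factors, with 1172 and 912 CPM in the traced libraries and 2708 and 2763 CPM in the untraced libraries (log2 fold change -1.45, SE 0.228, adjusted p = 0.00967), and it was not called without traced replicate 2 (adjusted p = 0.0575). Sox5, a high-mobility-group factor (chromosome 6, 143828425 to 144781977), had 148 and 147 CPM traced, 436 and 461 CPM untraced (log2 fold change -1.66, SE 0.194, adjusted p = 0.0011). Its 2 traced values were nearly equal, and both lay far below the untraced ones. Of the 17 dorsal excitatory factors 11 were tested: these 3 fell, none rose, and the median was -0.75.

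Sall3, a spalt-family zinc finger of inhibitory neurons, had 3.44 and 6 CPM traced, 36.5 and 43.6 CPM untraced (log2 fold change -3.34, SE 0.476, adjusted p = 0.00672), which rests on 7 traced UMIs. Without traced replicate 1 its adjusted p was 0.243. Of 12 dorsal inhibitory factors 8 were tested, 7 had a negative difference with a median of -1.68, and Sall3 alone was called. With the block Pax2, Pax8 and Rorb were called lower as well. Pax2, the classical marker of dorsal inhibitory neurons, stood at 19.3 and 63 CPM in the traced libraries and 74.7 and 135 CPM in the untraced libraries (block adjusted p = 0.00147), and traced replicate 2 came close to untraced replicate 1. Lmo3, a LIM-only cofactor, fell from 102 and 104 to 46.8 and 39 CPM (adjusted p = 0.0365). Of its 81 traced UMIs 43 lay in 1 neuron, and the call was absent without either traced library (adjusted p = 0.201 and 0.0946).

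In the ventral excitatory factors 5 of 11 were tested, 4 were positive and none was called. Sim1, the factor of V3 neurons, gave 25 and 10 UMIs in the traced and 0 in both untraced libraries. Set against a floor of 3 UMIs over the untraced group, its level was 28.8-fold higher. The counting interval of its ratio began at 22.2, but the adjusted p by edgeR was 0.0900. Sox14, a factor of ventral interneurons, gave 13 and 1 UMIs against 1 and 0, and its ratio of 34.5 had a counting interval from 5.25 to 1460. Neither value passed the test across genes.

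**Figure D2:**
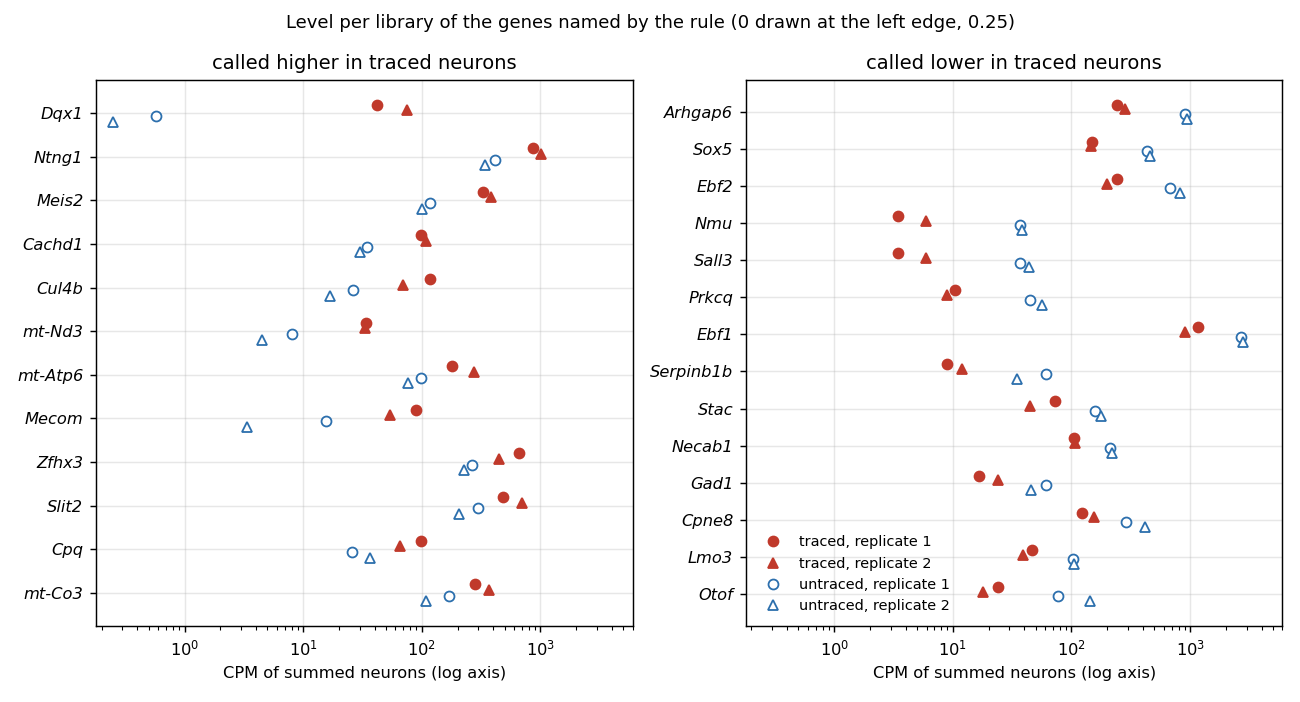
CPM of summed neurons per library (horizontal log axis) for called genes that the rule names, higher on the left and lower on the right. Each point is 1 library, filled for traced and open for untraced, and a value of 0 is drawn at the left edge. For every gene shown the 2 traced points lie on 1 side of the 2 untraced points, for example Arhgap6 at 241 and 282 against 905 and 942. The genes were chosen by their calls in these same libraries, so this separation follows largely from that choice.

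Genes of axon guidance and adhesion gave 2 of the increases. Ntng1 (chromosome 3, 109780040 to 110144011) stood at 864 and 1005 CPM in the traced libraries and 416 and 343 CPM in the untraced libraries. Its traced values exceeded both untraced values (934 ± 99.6 against 379.8 ± 51.4 CPM (SD, n = 2); log2 fold change 1.22, SE 0.181, adjusted p = 0.00778), and after thinning it was seen in 58.4% and 62.5% of traced and 29.7% and 26.4% of untraced neurons, against 0.90% of oligodendrocytes. Unthinned, these shares were 76.3% and 80.0% against 43.2% and 34.2%. Ntng1 was the 1 called gene among 5 netrin-G genes and ligands. Its paralogue Ntng2 had 13.1 and 21 CPM traced, 8.55 and 11.2 CPM untraced and was not called (adjusted p = 0.812).

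Slit2, a secreted ligand that repels axons through Robo receptors, stood at 481 and 693 CPM in the traced libraries and 296 and 206 CPM in the untraced libraries (log2 fold change 1.12, SE 0.208, adjusted p = 0.0311). The untraced libraries were both lower, yet the call was lost without traced replicate 2 (adjusted p = 0.112) and without untraced replicate 2 (0.0875). Among 22 guidance ligands tested Slit2 alone was called, with a median log2 fold change of 0.13. With the block Sema3a, a repellent semaphorin, was also higher (202 and 66 CPM traced, 72.1 and 43.6 CPM untraced; adjusted p = 0.0359). None of 24 guidance receptors was called, although the block added Nrp1 and Dscaml1 as lower. Nrp1, the semaphorin co-receptor neuropilin-1, had 106 and 189 CPM traced, 239.7 and 289.8 CPM untraced, with the groups apart (block adjusted p = 0.0113). Cdh18, a cadherin, and Ndst4, an enzyme of heparan sulfate synthesis, were called higher with the block only: Cdh18 had 2128 and 1865 CPM traced, 1100.2 and 859 CPM untraced (log2 fold change 0.97, adjusted p = 0.0563, and 0.0205 with the replicate block).

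None of the 16 contactins and related adhesion genes and none of the 18 genes of neurofilaments and the axon cytoskeleton was called in either fit, with medians of 0.18 and 0.09. Growth factor receptors gave no call among 9 tested. Il1rapl2, a synaptic organiser of the interleukin-1 receptor family, had 645 and 329.9 CPM traced, 236 and 107 CPM untraced (log2 fold change 1.46, adjusted p = 0.0596, and 0.00064 with the replicate block), and 256 of its 1047 traced UMIs lay in 1 neuron.

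Of 7 genes of GABA and glycine transmission, 2 were called lower in traced neurons, with a median log2 fold change of -1.02 over the list. Gad1, which makes GABA, was one of them and stood at 16.5 and 24 CPM in the traced libraries and 61.3 and 45.9 CPM in the untraced libraries (log2 fold change -1.62, SE 0.301, adjusted p = 0.0311). Its 2 traced values lay below the untraced ones, and it was not called without traced replicate 1 (adjusted p = 0.383) or untraced replicate 1 (0.0847). The non-neuronal nuclei of the untraced libraries held 5.53 and 4.12 CPM of Gad1. Gad2, the other GABA-making enzyme, was called lower with the block (adjusted p = 0.0358). Slc17a6, the vesicular glutamate transporter, had 196 and 108 CPM traced, 137 and 70.5 CPM untraced and was not called (adjusted p = 0.691).

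All 11 tested peptides of the dorsal horn had a negative difference, with a median of -0.79, and 2 were called. Nmu, which encodes neuromedin U, stood at 3.44 and 6 CPM in the traced libraries and 36.8 and 38 CPM in the untraced libraries (log2 fold change -3.26, SE 0.44, adjusted p = 0.00409), from 7 traced and 163 untraced UMIs. Npy, which encodes neuropeptide Y, stood at 5.51 and 3 CPM in the traced libraries and 29.6 and 17.9 CPM in the untraced libraries (log2 fold change -2.37, SE 0.462, adjusted p = 0.0406). The traced libraries were near the lower limit of counting for both. Nmu was not called without traced replicate 1 (adjusted p = 0.211). With the block, Nts (neurotensin) and Grp (gastrin-releasing peptide) were lower too, at 48.9 and 0 against 205 and 58.2 CPM and at 2.76 and 0 against 20.8 and 12.3 CPM. Vgf, a precursor of several peptides outside that list, was higher with the block (63.4 and 69 CPM traced, 29.4 and 25.7 CPM untraced; log2 fold change 1.17, adjusted p = 0.0633, and 0.0204 with the replicate block).

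Among 17 peptide and opioid receptors none was called. Tacr1, the substance P receptor known from projection neurons of the superficial dorsal horn, had 67.5 and 51 CPM traced, 31.4 and 13.4 CPM untraced (log2 fold change 1.27, adjusted p = 0.134, and 0.024 with the replicate block). Of 17 GABA and glycine receptor genes none was called, and Glra2, a glycine receptor subunit, was higher with the block (104 and 54 CPM traced, 46.7 and 25.7 CPM untraced; adjusted p = 0.0202).

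None of 20 glutamate receptor genes, 21 potassium channel genes and 18 sodium and calcium channel genes was called. With the block Grik1, a kainate receptor subunit, and Kcnt2, a sodium-activated potassium channel, were lower. Grik1 had 183 and 264 CPM traced, 413 and 434 CPM untraced (block adjusted p = 0.013), and Kcnt2 had 211 and 306 CPM traced, 467 and 428 CPM untraced (0.0196). No immediate early gene was called among 8 tested, and no interferon response gene among 10.

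Arhgap6, a GTPase-activating protein (chromosome X, 168795099 to 169304435), gave the smallest p of all lower genes. It stood at 241 and 282 CPM in the traced libraries and 905 and 942 CPM in the untraced libraries, with 261 ± 28.9 against 923 ± 26.4 CPM (SD, n = 2) (log2 fold change -1.90, SE 0.2, adjusted p = 0.000831). The groups lay far apart, and thinned neurons with a UMI were 22.1% and 20.8% of traced and 50.3% and 54.7% of untraced, against 1.20% of oligodendrocytes. Unthinned, they were 50.0% and 40.0% against 63.6% and 65.9%. In the unsorted uninjured library of experiment 2 its level was 653 CPM, between the groups.

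Other called genes of signalling and calcium binding were lower. Prkcq, protein kinase C theta, had 10.3 and 9 CPM traced, 45 and 55.9 CPM untraced (adjusted p = 0.00934), while the non-neuronal nuclei of the untraced libraries held 116 and 123 CPM of it. Stac, an adaptor of calcium channels, had 73 and 45 CPM traced, 158 and 177 CPM untraced (adjusted p = 0.0182). Necab1, a neuronal calcium-binding protein, had 105 and 108 CPM traced, 211 and 218 CPM untraced (adjusted p = 0.0311). In these genes each traced library was below each untraced one. Cpne8, a calcium-dependent membrane-binding protein, fell from 289 and 413 to 123 and 156 CPM. Otof, a calcium sensor of exocytosis, fell from 77.5 and 142 to 24.1 and 18 CPM, and Serpinb1b, a protease inhibitor, from 61 and 34.7 to 8.95 and 12 CPM.

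The remaining higher genes have varied roles. Cachd1, a protein related to calcium channel subunits, had 97.8 and 108 CPM traced, 34.2 and 30.2 CPM untraced (log2 fold change 1.58, SE 0.238, adjusted p = 0.00778). Cul4b, the scaffold of a ubiquitin ligase, had 118 and 69 CPM traced, 26.2 and 16.8 CPM untraced (log2 fold change 2.08, SE 0.313, adjusted p = 0.00778), with 48 of 194 traced UMIs in 1 neuron. Cpq, a carboxypeptidase, had 97.8 and 66 CPM traced, 25.7 and 36.9 CPM untraced (log2 fold change 1.49, SE 0.295, adjusted p = 0.043). Glial nuclei also express Cachd1 and Cpq, at 160.4 and 135 and at 121 and 86.5 CPM. Dqx1, a putative RNA helicase, had the largest fold of the named genes, yet 59 of the 61 UMIs of traced replicate 1 and all 25 of traced replicate 2 lay in 1 neuron each. Against 2 untraced UMIs its ratio was 106, with a counting interval from 28.5 to 890 that does not cover such clustering, and it was not called once the neuron with most UMIs of a gene was left out.

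Mitochondrially encoded transcripts were called higher in 3 of 13 genes, with 11 positive and a median of 0.83, and in 5 with the block. mt-Nd3, a subunit of complex I, had 33.8 and 33 CPM traced, 7.98 and 4.48 CPM untraced (log2 fold change 2.22, SE 0.346, adjusted p = 0.00967), and mt-Atp6, of the ATP synthase, had 180.5 and 273 CPM traced, 98.9 and 77.2 CPM untraced (log2 fold change 1.22, SE 0.217, adjusted p = 0.0278). mt-Co3, a cytochrome oxidase subunit, had 282 and 369 CPM traced, 169.6 and 109 CPM untraced (adjusted p = 0.0462). In the unsorted uninjured library the 3 genes stood higher than in either group, at 129, 812 and 815 CPM. Reads of these genes can also match near-identical nuclear copies, and how those were counted is not stated in these sources. None of 25 cytoplasmic ribosomal protein genes was called.

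Among oligodendrocyte transcripts 1 was called lower in traced neurons, the fraction with fewer glial nuclei. Of the 10 markers, 9 had a negative difference, with a median of -2.27, and Mal, a myelin protein, was called: 1.38 and 0 CPM traced, 22.5 and 11.2 CPM untraced (log2 fold change -4.05, SE 0.736, adjusted p = 0.0311). Ptgds, the prostaglandin D synthase of glia and meninges, was called lower too (6.2 and 6 CPM traced, 97.2 and 54.8 CPM untraced; log2 fold change -3.71, SE 0.746, adjusted p = 0.0462), with 1704 and 906 CPM in non-neuronal nuclei. Levels in those nuclei varied among other lower genes. Prkcq stood higher there than in untraced neurons, while Ebf1, Ebf2, Arhgap6 and Otof had at most 57.7 CPM, below their untraced neuronal levels. The part of free glial RNA in these differences was not tested.

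Of 4 astrocyte markers and 5 microglia markers tested none was called, and with the block Cx3cr1, a microglial receptor, was higher (31.7 and 27 CPM traced, 9.41 and 7.83 CPM untraced; adjusted p = 0.0466). The microglia markers summed to between 139 and 159 CPM in the traced and between 89.8 and 139 CPM in the untraced libraries, and the astrocyte markers to between 50.3 and 81.0 CPM and between 63.0 and 70.5 CPM. Of the 4 endothelial markers, Cldn5 and Ly6c1 were at 0 UMIs in all 4 libraries, Flt1 had 3 traced and 4 untraced UMIs, and Pecam1 was tested and not called. Together they summed to 9.64 and 3.00 CPM in the traced and 5.13 and 6.71 CPM in the untraced libraries. Of the glial precursor markers, Cspg4 was at 0 UMIs in all 4 libraries, and Pdgfra had 0 traced and 5 untraced UMIs. The 4 motor neuron markers tested summed to 4.82 and 96.0 CPM in the traced libraries, and the higher value belongs to the library with 2 motor neurons among 25 neurons.

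**Figure D3:**
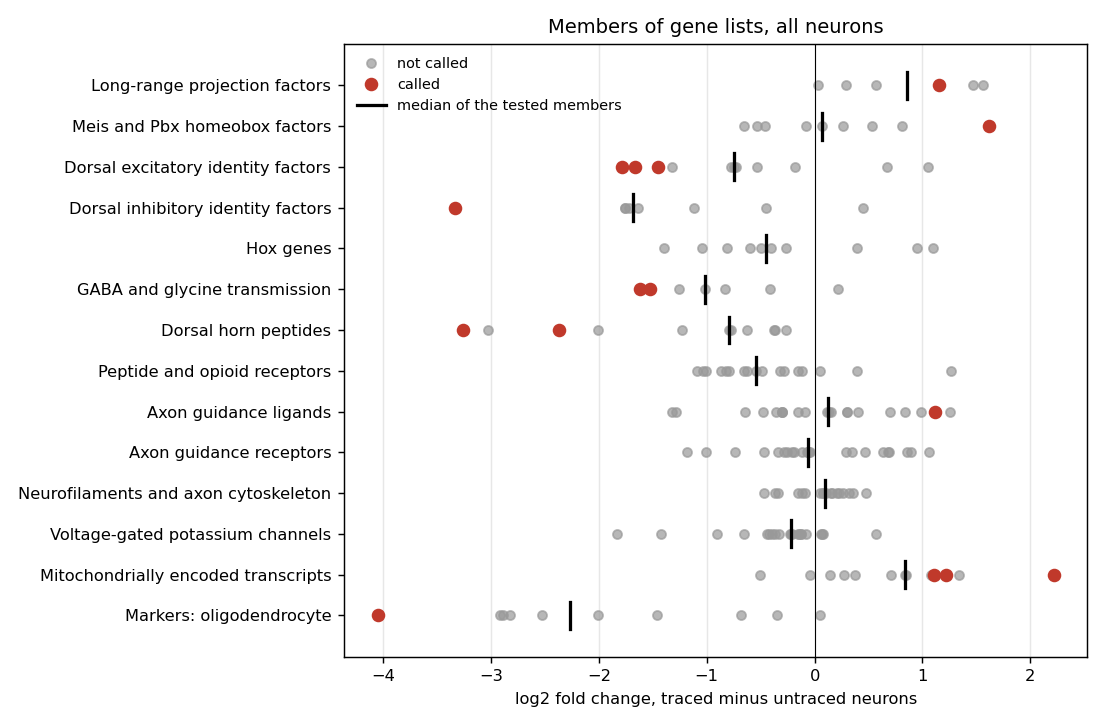
Log2 fold change between traced and untraced neurons (horizontal axis) for the tested members of selected gene lists (rows). Points are genes, red where called at an adjusted p under 0.05, and black bars are list medians. The medians lie at -1.68 for dorsal inhibitory factors, -0.79 for dorsal horn peptides, 0.86 for long-range projection factors and 0.83 for mitochondrial transcripts.

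The single unsorted uninjured library of experiment 2, with 2148 neurons, offers a level for each gene outside the sort, though it also enters the fit. For 23 of the 28 genes that meet the naming rule its CPM lay between the 2 group means. These genes were selected for a gap between the same means, so this count is description and no further support. The share over all tested genes is not given here. The 5 outside were mt-Nd3, mt-Atp6, mt-Co3, Nmu and Serpinb1b. For 23 genes it was also nearer to the untraced mean.

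Because the traced fraction holds more VEP and fewer DI neurons, genes were next compared within a prefix, over the 2 prefixes with at least 5 neurons in each of the 4 libraries. Among DE neurons, 30 and 9 traced cells stood against 193 and 71 untraced ones. Of 7019 genes tested 9 were called, 0.128%: Gpc5, Htr2c, Meis2, Zmat4, Nfib and Grik3 higher (0.0855%), and 3 genes lower (0.0427%), Sox5 and Ptgds among them. With the block 43 were called (0.613%), 24 higher and 19 lower.

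Gpc5, a glypican that carries heparan sulfate on the cell surface, stood within DE at 964 and 593 CPM in the traced libraries and 87.9 and 166 CPM in the untraced libraries (log2 fold change 2.69, SE 0.372, adjusted p = 0.0143). Over all neurons the same gene had 1165 and 561 CPM traced, 1039 and 987 CPM untraced and was not called (adjusted p = 0.899). Htr2c, a serotonin receptor, stood within DE at 474 and 819 CPM in the traced libraries and 129.6 and 150.0 CPM in the untraced libraries (log2 fold change 2.11, SE 0.31, adjusted p = 0.0172), and 57 of the 69 UMIs of traced replicate 2 lay in 1 neuron. Over all neurons Htr2c had 743 and 663 CPM traced, 716 and 443 CPM untraced and was not called.

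Meis2 within DE stood at 161 and 403 CPM in the traced libraries and 39 and 34.1 CPM in the untraced libraries (log2 fold change 2.68, SE 0.401, adjusted p = 0.0172). All 34 UMIs of traced replicate 2 came from 1 of its 9 neurons, and 9 of the 30 neurons of traced replicate 1 held the other 79. Zmat4, a zinc finger protein, had 214 and 237 CPM traced, 60.8 and 59.1 CPM untraced (adjusted p = 0.029), and Nfib, a nuclear factor of late-born local neurons, had 219 and 202 CPM traced, 61.5 and 38.6 CPM untraced (0.029). Each was above the untraced level in both replicates. Zmat4 was not called without untraced replicate 1 (adjusted p = 0.0750) or 2 (0.0992), and Nfib not without traced replicate 1 (0.0615) or untraced replicate 2 (0.127). Grik3, a kainate receptor subunit, had 89.9 and 83.1 CPM traced, 14.5 and 6.82 CPM untraced (adjusted p = 0.0313), and all 7 UMIs of traced replicate 2 lay in 1 neuron.

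Sox5 within DE stood at 172 and 119 CPM in the traced libraries and 871 and 779.6 CPM in the untraced libraries (log2 fold change -2.43, SE 0.314, adjusted p = 0.0132), the smallest p of the DE comparison. The DE class itself was made up differently: DE_Sox5_Qrfpr cells were 22.3% and 14.1% of untraced but 3.33% and 0% of traced DE neurons, and the part of that mix in the difference was not tested. Ptgds was lower within DE as well, at 6.13 and 11.9 CPM traced, 118 and 61.4 CPM untraced. It was not called without traced replicate 1 (adjusted p = 0.126), without untraced replicate 1 (0.0515) or by DESeq2 (0.0653).

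Several genes called over all neurons did not pass within DE. Arhgap6 had 564 and 997 CPM traced, 1852 and 1643 CPM untraced (log2 fold change -1.26, SE 0.31, adjusted p = 0.227). Ebf2 had 686 and 771 CPM traced, 1464 and 1598 CPM untraced and Ebf1 2510.3 and 2551 CPM traced, 4888 and 4848 CPM untraced, with adjusted p of 0.243 and 0.435. In all 3 the traced values were below the untraced ones, and the estimates of -1.26, -1.12 and -0.98 were smaller in size than those over all neurons. Slit2 had 468 and 178 CPM traced, 95.2 and 97.7 CPM untraced (log2 fold change 1.88, adjusted p = 0.0901, and 0.000212 with the replicate block). Nmu and Epha6, an ephrin receptor, were lower with the block (adjusted p = 0.00263 and 0.00574), with Epha6 at 284 and 261 CPM traced, 729.7 and 714 CPM untraced.

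Among VEP neurons, with 31 and 6 traced and 26 and 6 untraced cells, 0 of 5316 genes were called by edgeR, 121 having an unadjusted p under 0.05. The block also gave 0, with 136 under 0.05, and DESeq2 gave 0, with 53. Without the filter on low counts 26 genes were called, without traced replicate 1, 15, without traced replicate 2, 11, without untraced replicate 1, 95, and without untraced replicate 2, 0. Rnf220, a ubiquitin ligase, had the smallest p of the higher genes, with 291 and 612 CPM traced, 69.1 and 56.5 CPM untraced (log2 fold change 2.69, SE 0.487). Cul4b had 180.4 and 143 CPM traced, 35.7 and 18.8 CPM untraced, a pattern like that over all neurons. Nr2f2, a nuclear receptor, had the smallest p of the lower genes, with 14.2 and 0 CPM traced, 73.8 and 151 CPM untraced. Slc5a7, the choline transporter, had 4.75 and 16.8 CPM traced, 57.2 and 132 CPM untraced, and Slit3, a Slit ligand, had 55.4 and 159 CPM traced, 264 and 3483 CPM untraced, where 1 untraced library of 6 neurons stood far above the rest.

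Side by side, the 2 classes gave different levels for the genes that were higher over all neurons. Zfhx3 stood at 1157 and 822 CPM in the traced libraries and 1348 and 715 CPM in the untraced libraries within VEP, and at 196 and 107 CPM traced, 63.5 and 77.3 CPM untraced within DE. Its difference within VEP was -0.10 on the log2 scale with an SE of 0.425, and within DE it was 1.27 with an SE of 0.348. Slit2 stood at 465 and 931 CPM traced, 664 and 1017 CPM untraced within VEP (log2 fold change -0.29, SE 0.434). Meis2 stood at 470.1 and 663 CPM traced, 419 and 452 CPM untraced within VEP (log2 fold change 0.35, SE 0.361). For these 3 genes the VEP levels of both fractions lay above the untraced DE levels. Ntng1 kept a positive estimate in each class, 1.90 (SE 0.596) within VEP and 0.63 (SE 0.334) within DE, and neither was called. Arhgap6 was lower in VEP than in DE neurons in both fractions: within VEP it had 44.3 and 16.8 CPM traced, 129 and 37.7 CPM untraced. Its levels within the other prefixes are not given here.

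**Figure D4:**
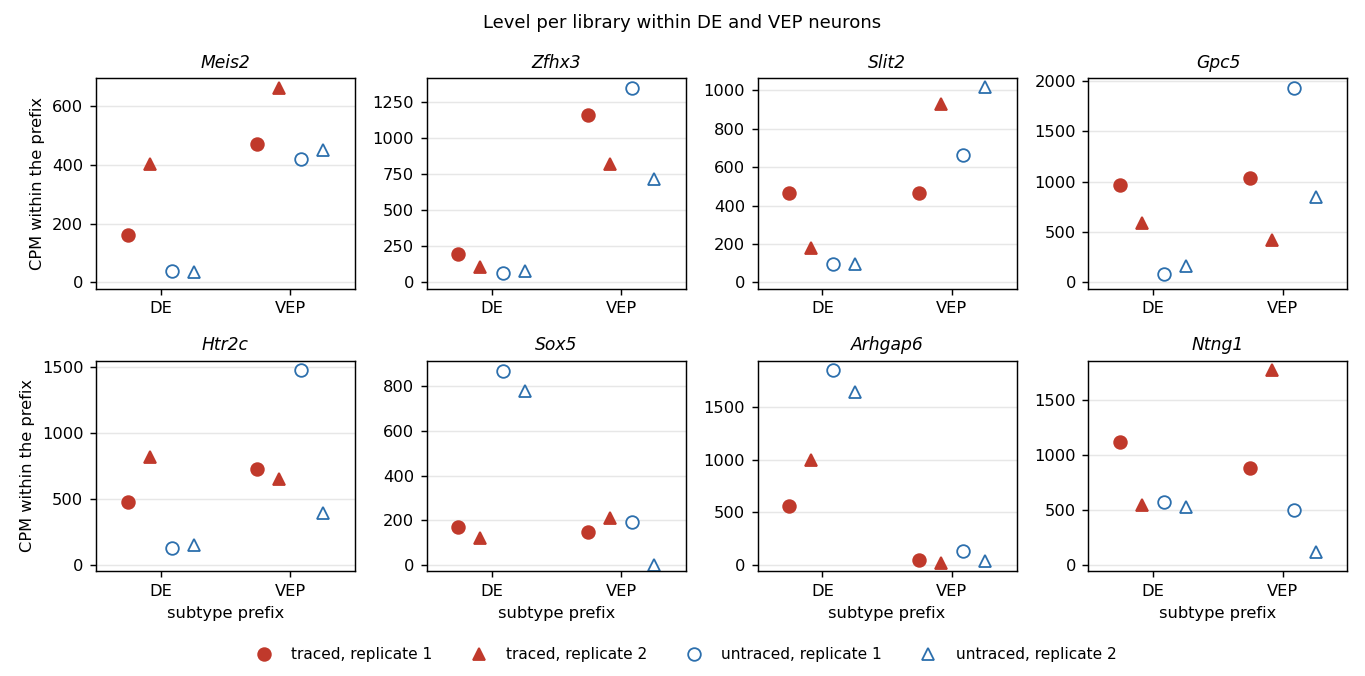
CPM per library (vertical axis) within DE and within VEP neurons for 8 genes, filled for traced and open for untraced. Within DE the traced values of Meis2 lie at 161 and 403 against 39 and 34.1, while within VEP all 4 libraries lie between 419 and 663.

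Whether the traced difference itself differed between VEP and DE neurons was tested with an interaction term over the 8 sums, a test added after the data were seen. Of 7949 genes 6 were called, 0.0755%. Gpc5, Zeb2 and Plch1 had a lower traced difference in VEP than in DE neurons, and Synpr, C1ql3 and Ptprm a higher one. Zeb2, a zinc finger factor, had 245 and 403 CPM traced, 118 and 38.6 CPM untraced within DE. Within VEP it had 3.17 and 58.7 CPM traced, 90.5 and 264 CPM untraced. The 3.17 CPM were 2 UMIs, and 10 of the 14 UMIs behind the 264 CPM lay in 1 neuron. Ptprm, a receptor phosphatase of cell adhesion, had 114 and 11.9 CPM traced, 211 and 284 CPM untraced within DE. Within VEP it had 551 and 562 CPM traced, 207 and 113 CPM untraced, so that the fractions lay in opposite order in the 2 classes. That order rests on few counts: the 11.9 CPM were 1 UMI, and the 113 CPM were 6 UMIs, 5 of them in 1 neuron. For Meis2 the difference between classes was -2.29 on the log2 scale (SE 0.503, adjusted p = 0.109), and for Sox5 it was 3.06 (SE 0.700, adjusted p = 0.112). Neither was called, nor were those of Zfhx3 (adjusted p = 1.00) and Slit2 (0.759).

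The stability of the 28 calls that meet the naming rule varied with the library left out. Arhgap6, Sox5, Ebf2, Ntng1 and Dqx1 were among the 6 called without each of the 4 libraries in turn. For Dqx1 nearly all UMIs of each traced library lay in 1 neuron, which leaving out a library cannot show. Dqx1 had no call with DESeq2, after thinning or without the top neuron of each gene. Without traced replicate 1, 10 of the 28 kept their call. The 18 lost included Meis2, Cachd1, Cul4b, mt-Nd3, Mecom, Zfhx3, Cpq and mt-Co3 of the higher genes and Nmu, Sall3, Prkcq, Serpinb1b, Necab1, Gad1, Cpne8, Lmo3 and Otof of the lower genes, with adjusted p from 0.0601 to 0.499. Without traced replicate 2, 18 kept it, and those that did not included mt-Atp6, Slit2, mt-Co3, Ebf1, Stac, Necab1, Cpne8, Lmo3 and Otof (adjusted p from 0.0507 to 0.149). Without untraced replicate 1, Cpq and Gad1 lost their call (0.15 and 0.0847), and without untraced replicate 2, Slit2 and mt-Co3 (0.0875 and 0.119). The direction held for all 28 genes in each of these fits. After thinning every neuron to 2000 UMIs 10 kept it, and with DESeq2 21.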

How the data were processed

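Nuclei were profiled by single-nucleus RNA sequencing (10x v3, per the labels) in 8 libraries, of which the 4 of experiment 1 are compared here. The authors deposited UMI counts, without normalization, for 19787 genes and 12447 nuclei, together with an annotation of 6 classes and 28 neuronal subtypes, both used as deposited. The submitters' processing notes name Cell Ranger 4.0.0, Seurat 3, mm10 and GRCm38. How nuclei were filtered, how doublets were treated, the strand setting and any counting of introns are not stated in these sources. Every annotated neuron was kept, doublets were not called again, and 1 further annotation column was left out.

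Groups were taken from the sample titles. UMI counts were summed over the neurons of each library, and CPM values are relative to that sum. The tests were edgeR 4.0.16 quasi-likelihood fits (R 4.3.3) with TMM scaling and filterByExpr (minimum count 10, minimum total 15). All 8 libraries entered with 1 coefficient for each of 5 groups, which leaves 3 residual degrees of freedom. These come from the traced, untraced and hemisection groups, each with 2 libraries, so injured libraries share in the error term. P-values were adjusted by Benjamini-Hochberg over all genes tested, and genes under 0.05 were called. The standard error is the log2 fold change divided by the square root of F. Within a prefix only the 4 libraries of experiment 1 were fitted. Shares were tested in the same way on neuron numbers, for types with at least 10 neurons over all libraries. DESeq2 1.42.0, RLE scaling, no filter on low counts, thinning to 2000 UMIs, leaving out the top neuron of each gene, neurons with at least 1000 UMIs, the 4 libraries alone and each library left out were tried as alternatives.

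Both fractions of a replicate share a number in the titles and a prefix in the names of their nuclei. Over 5809 genes the difference between replicates in the traced fraction and that in the untraced fraction had a Pearson correlation of 0.19 and a Spearman correlation of 0.16, across genes, which are not independent. The block fit, with 2 residual degrees of freedom, was therefore given beside the results that it changes.

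Named genes are called genes whose higher group averaged 20 CPM or more, up to 15 in each direction by p, without unnamed models, up to 10 more in each direction that only the block calls, and the 5 with the smallest p in each direction within a prefix. The members and the 36 gene lists were chosen with earlier results of these data known. Some genes and subtypes are not reported here. Only the edgeR fits without the block over all neurons and within DE were run on simulated data, and the outcome is not given here. The block, VEP, share, interaction and DESeq2 fits were not simulated. Intervals cover counting error only. Promoters are RefSeq entries on GRCm38.p6, found for 28 of the 42 called genes, and gene positions are from GENCODE M21 on GRCm38.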

Additional observations from a re-analysis of the deposited data

Results flagged for a closer look

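The traced difference differed between VEP and DE neurons for 6 genes in an interaction test by edgeR that was added after the data were seen, each with an adjusted p of 0.0300. The value given is the log2 difference within VEP minus that within DE. Gpc5, a glypican, had -3.57 (SE 0.619), with 964 and 593 CPM traced, 87.9 and 166 CPM untraced within DE. Within VEP it had 1038 and 419 CPM traced, 1931 and 847 CPM untraced. Of its VEP UMIs, 34 of 50 in traced replicate 2 and 44 of 45 in untraced replicate 2 lay in 1 neuron each. Zeb2, a zinc finger factor, had -4.93 (SE 0.869). Plch1, a phospholipase C, had -5.02 (SE 0.952), and 22 of the 27 UMIs of traced replicate 2 within DE lay in 1 neuron. Synpr, a synaptic vesicle protein, had 3.91 (SE 0.714), and 70 of the 157 VEP UMIs of traced replicate 1 lay in 1 neuron. C1ql3, a secreted synaptic protein, had 5.27 (SE 0.998), with 1 and 0 UMIs in untraced VEP neurons. Ptprm, an adhesion phosphatase, had 3.36 (SE 0.641). Zeb2 is also abundant in glial nuclei, at 2748 and 3019 CPM in the untraced libraries, and the part of glial RNA in its difference was not tested. Synpr was not called without traced replicate 1 (2.13, adjusted p = 0.880), nor C1ql3 without untraced replicate 1 (6.93, adjusted p = 0.633).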

How the results depend on the processing

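Over all neurons the 42 calls became 141 with the replicate block, 159 with the block on the 4 libraries alone (chosen after the data were seen), 234 without a filter on low counts, 85 without the top neuron of each gene and 22 after thinning. They stayed between 33 and 45 with the 4 libraries alone, DESeq2, RLE scaling and neurons of at least 1000 UMIs. Leaving out 1 library gave 19 to 93 calls, the fewest without traced replicate 1. Within DE the 9 calls became 43 with the replicate block and 54 without the filter, and 15 to 101 with 1 library left out. Within VEP the 0 calls became 26 without the filter and 0 to 95 with 1 library left out. The interaction gave 13 to 65 calls with 1 library left out, against 6. The replicate block and the restriction to neurons of at least 1000 UMIs each gave 1 called subtype, against 0. The number of called prefixes ranged from 0 to 3 with 1 library left out, and without traced replicate 1 the difference of MEP went to 0.00 and that of VEL to -6.45, while MEP reached 7.45 without traced replicate 2 and VEL 2.51 without untraced replicate 1. MEP had 0 neurons in traced replicate 2 and in both untraced libraries, and VEL had 0 in traced replicate 2. The values of 0.00 and -6.45 therefore rest on counts of 0. The cause of the other changes was not tested. Where 1 library was left out, the lone library of its group was assumed to vary like the others. The replicate block moved no call of a prefix. No prefix had 10 neurons in each library (0 found), so that alternative gave no value, and the regenerating library dropped out of the thinned fit. The main limits are the 2 libraries per group, the 25 neurons of traced replicate 2 and the 6 VEP neurons of untraced replicate 2.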

Other observations

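The levels of a pair of genes differed between replicates. Taco1, a mitochondrial translation activator, stood at 29.6 and 48 CPM in the traced libraries and 41 and 275 CPM in the untraced libraries, high in untraced replicate 2 alone, and at 57.9 and 518 CPM in the non-neuronal nuclei of untraced replicates 1 and 2. Afm, a vitamin E-binding protein, stood at 101 and 12 CPM in the traced libraries and 31.4 and 3.36 CPM in the untraced libraries, higher in replicate 1 than in replicate 2 of each fraction and higher in traced than in untraced neurons of each replicate. Neither gene is named by the rule, and both were picked from their values.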
